A study of Mus musculus with 6 samples.

Results

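Nos2 and 7 genes that supply its substrate and its cofactor were followed in mouse liver 6 h after endotoxin. The 8 genes (Nos2, Nos3, Slc7a2, Arg2, Gch1, Pts, Spr and Qdpr) were taken by symbol from a deposited table of 19613 gene rows, and each symbol matched 1 row. Nos2 was selected on its adjusted p and fold change between the genotypes in these same libraries, and the others by their place in the pathway. The members were thus chosen by values of that contrast, and these values for the 8 genes are given as a description, with no test.

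Nitric oxide is made from arginine by the nitric oxide synthases, which need tetrahydrobiopterin as a cofactor. NOS2, the inducible enzyme, is switched on by endotoxin and cytokines in macrophages and in hepatocytes, while NOS3 is the constitutive enzyme of the endothelium. Arginine enters the cell through cationic amino acid transporters such as the product of Slc7a2, and arginases compete with the synthases for it. Tetrahydrobiopterin is built from GTP by the products of Gch1, Pts and Spr in turn, and the product of Qdpr regenerates it after use.

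The libraries came from liver RNA of knockout (KO) mice and of wild-type (WT) mice, 3 libraries each. Every animal had received lipopolysaccharide (LPS) at 15 mg/kg into the peritoneal cavity 6 h earlier, so no untreated level is known for any gene. The sources used here do not give strain, sex, age or the cells that carry the deletion, and do not say whether each library was a separate animal, so p-values and errors measure the spread between libraries, which may be technical. Reads recovered in genes ranged from 26010585 to 44141095 per library. All 8 hepatocyte marker genes passed the filter on low values, and Alb, which codes for albumin, stood between 9996 and 15962 in the scaled values defined next. Levels below are FPKM (fragments per gene length and library denominator) divided by a median-of-ratios factor for each library, called scaled FPKM. As deposited, without that factor, the median gene was 0.45 higher in KO on the log2 scale, against -0.00498 after scaling. The reads recovered made up 97.2% to 128.7% of the denominator implied by the deposited FPKM in the KO libraries and 74.5% to 96.8% in the WT libraries.

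The RefSeq promoter table (build GRCm38.p6) held 4 of the 8 genes, the 4 that make or recycle tetrahydrobiopterin. Their last 150 bases before the transcription start are shown so that the control regions of genes of the same short pathway can be compared beside their levels below. Nos2, Nos3, Slc7a2 and Arg2 had no entry. Each stretch lies on the minus strand and is written 5′ to 3′ along the gene, with matches to 7 searched motifs in capitals, on either strand.
Gch1, chr14:47189414-47189563: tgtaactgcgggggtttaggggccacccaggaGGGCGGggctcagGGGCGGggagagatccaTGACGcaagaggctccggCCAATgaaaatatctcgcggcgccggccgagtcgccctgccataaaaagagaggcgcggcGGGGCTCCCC
Pts, chr9:50528657-50528806: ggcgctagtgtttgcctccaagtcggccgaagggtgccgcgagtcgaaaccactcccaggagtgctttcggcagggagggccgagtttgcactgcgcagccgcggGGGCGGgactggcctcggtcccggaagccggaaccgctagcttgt
Spr, chr6:85137765-85137914: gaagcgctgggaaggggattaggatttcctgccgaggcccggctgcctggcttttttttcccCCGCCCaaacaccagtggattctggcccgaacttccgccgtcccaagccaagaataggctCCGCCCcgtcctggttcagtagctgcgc
Qdpr, chr5:45450230-45450379: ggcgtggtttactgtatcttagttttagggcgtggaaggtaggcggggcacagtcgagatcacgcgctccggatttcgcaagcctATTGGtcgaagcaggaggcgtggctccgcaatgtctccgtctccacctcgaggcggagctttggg

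The 4 stretches had a GC content of 67.3% in Gch1, 68.0% in Pts, 62.0% in Spr and 59.3% in Qdpr, against a median of 54.0% over all 32843 promoter entries of the same length. A GC box (GGGCGG) was found in Gch1, Pts and Spr, and in 28.6% of all entries. A CCAAT box (CCAAT) was found in Gch1 and, on the other strand, in Qdpr, and in 24.5% of all entries. Gch1 alone held the core of the cyclic AMP response element (TGACG, 13.3% of all entries) and a match to the kappaB consensus (4.60% of all entries), GGGGCTCCCC, which reads as a match on both strands and ends at the base before the start. None of the 4 held a TATA box (TATAAA, 7.58%), a GAS element (TTCNNNGAA, 4.09%) or an E-box (CACGTG, 4.30%) in this window. These are letter matches and say nothing of whether a factor binds there.

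Nos2, the inducible synthase, had 4.03, 4.50 and 4.03 scaled FPKM in KO replicates 1 to 3 and 8.58, 8.51 and 10.4 scaled FPKM in WT replicates 1 to 3. All 3 KO libraries lay below all 3 WT libraries, and the KO libraries were close to each other. The means were 4.19 ± 0.275 scaled FPKM in KO and 9.15 ± 1.06 scaled FPKM in WT (SD, n = 3), 54.3% lower in KO. On the log2(scaled FPKM + 1) scale, which understates changes of low genes, the difference was -0.97 with a standard error of 0.12. This is the value by which Nos2 was chosen, with a limma adjusted p of 0.00960 over 9218 genes tested.

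Behind these levels stood 645, 744 and 859 reads in KO replicates 1 to 3 and 1119, 1243 and 1222 reads in WT replicates 1 to 3. Each WT library held more Nos2 reads than any KO library, and fewer reads recovered in genes. By the denominator implied by the deposited FPKM the order differed. WT replicates 1 and 2, at 37973280 and 45428820 reads, stood above every KO library, at 29039160 to 35400140 reads. The 95% exact Poisson intervals, which cover counting error only, were 4.19 to 4.84 scaled FPKM for the highest KO library and 8.04 to 8.99 scaled FPKM for the lowest WT library, and did not overlap. Nos2 kept this order without any scaling, with 4.10, 5.77 and 5.64 FPKM as deposited in KO and 6.64, 6.16 and 10.2 FPKM in WT; over all genes tested, 0.575% had every KO library below every WT library as deposited. As deposited the groups were closer, at 5.17 ± 0.927 and 7.68 ± 2.23 FPKM (SD, n = 3), and the log2 fold change was -0.47 (limma adjusted p = 0.101). The adjusted p by which Nos2 was chosen was 0.0687 (limma) with KO replicate 1 left out, and ran from 0.00649 to 0.101 over all 16 alternatives. These come from the same libraries and lend the choice no support.

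Nos3, the endothelial synthase, was the lowest of the 8 genes, with 0.262, 0.358 and 0.398 scaled FPKM in KO and 0.288, 0.360 and 0.255 scaled FPKM in WT. The groups overlapped, at 28 to 79 reads per library, and no library reached 1 FPKM as deposited, so Nos3 was not among the genes tested. As deposited its KO libraries, at 0.267, 0.458 and 0.557 FPKM, lay above the WT libraries, at 0.223, 0.261 and 0.252 FPKM. The median gene tested was itself 0.45 higher in KO as deposited, on the log2 scale. The share of all genes in this order as deposited was not computed, so nothing is read from it. Nos1, the neuronal synthase and not a gene of the set, had 1 read in KO replicate 2 and 0 in each other library. Nos2 therefore made up 91.0% to 93.9% of the summed FPKM of the 3 synthase genes in KO and 95.9% to 97.6% in WT.

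**Figure D1:**
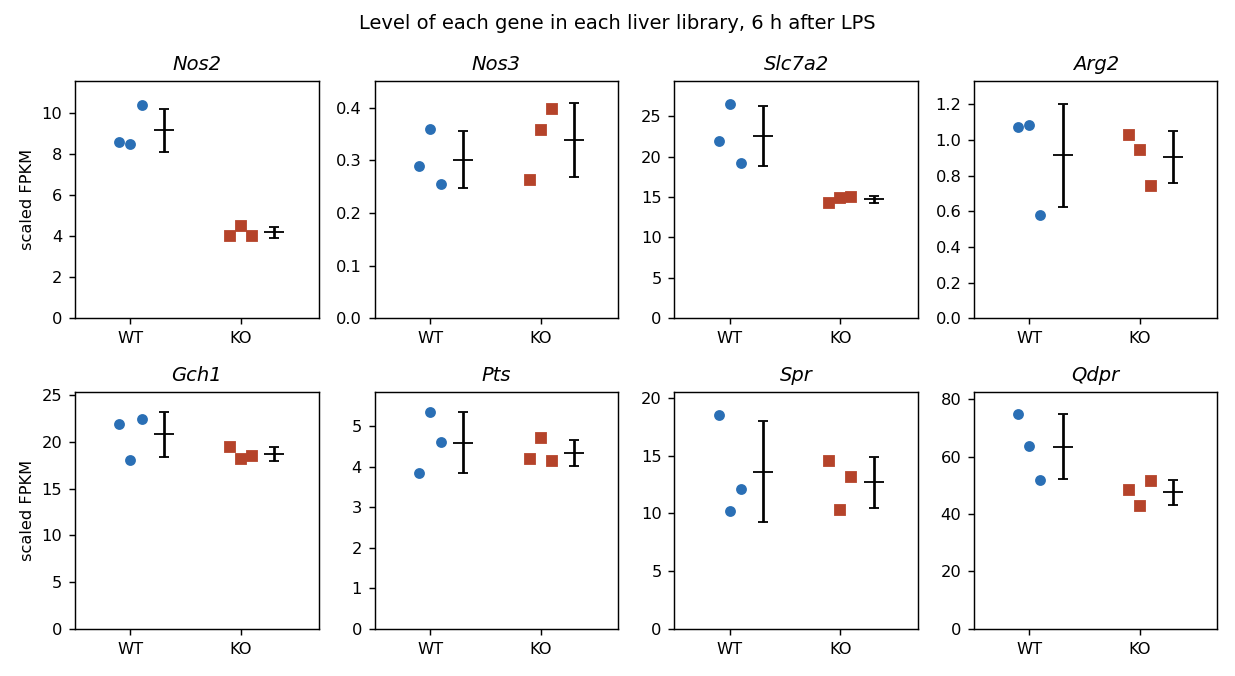
Level of each of the 8 genes in scaled FPKM (vertical axes, each from 0) in the 3 WT (circles) and 3 KO (squares) libraries, with the group mean and SD beside the points. For Nos2, Slc7a2 and Qdpr every KO point lies below every WT point after scaling, while the points of the other 5 genes overlap. As deposited, Slc7a2 and Qdpr overlap and the KO points of Nos3 and Arg2 lie above the WT points. The median gene was also higher in KO as deposited.

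Among the arginine genes, Slc7a2, the cationic amino acid transporter CAT2, had 14.2, 14.9 and 15.0 scaled FPKM in KO and 21.9, 26.6 and 19.3 scaled FPKM in WT. After scaling all KO libraries lay below all WT libraries, and the KO values spanned less than 1 scaled FPKM while the WT values spread widely. The means were 14.7 ± 0.412 and 22.6 ± 3.70 scaled FPKM (SD, n = 3), and the log2 fold change of -0.58 (standard error 0.14) was not called. As deposited the groups overlapped, with 18.2 ± 3.33 FPKM for KO and 18.4 ± 1.28 FPKM for WT, and the log2 fold change was -0.03, so the difference in Slc7a2 appears only once the libraries are scaled.

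Arg2, the mitochondrial arginase, had 1.03, 0.941 and 0.743 scaled FPKM in KO and 1.07, 1.09 and 0.581 scaled FPKM in WT. The groups overlapped and their means were 0.904 ± 0.146 and 0.913 ± 0.288 scaled FPKM (SD, n = 3). Arg2 rested on 22 to 53 reads per library, and a 95% exact Poisson interval for WT replicate 3 alone ran from 0.364 to 0.879 scaled FPKM. It entered the test only because its deposited value reached 1 FPKM in all 3 KO libraries, and in no WT library, before scaling. As deposited all KO libraries lay above all WT libraries, an order whose share over all genes tested was not computed. The median gene was 0.45 higher in KO as deposited, on the log2 scale. Arg1, the abundant cytosolic arginase of the urea cycle, exceeded Arg2 by 314 to 422 times in the KO libraries and by 370 to 487 times in the WT libraries.

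Gch1, whose product GTP cyclohydrolase is the rate-limiting enzyme of tetrahydrobiopterin synthesis, had 19.5, 18.1 and 18.5 scaled FPKM in KO and 21.9, 18.1 and 22.5 scaled FPKM in WT. WT replicate 2 lay below all 3 KO libraries, so the groups overlapped. The log2 fold change was -0.14 (standard error 0.12), smaller than the spread between the WT libraries, whose scaled FPKM averaged 20.8 ± 2.40 against 18.7 ± 0.717 in KO (SD, n = 3). As deposited it was 0.40, in the other direction.

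Pts, which codes for the second enzyme of the route, had 4.19, 4.70 and 4.13 scaled FPKM in KO and 3.84, 5.33 and 4.60 scaled FPKM in WT. Both the lowest and the highest library were WT. Spr, for sepiapterin reductase, which carries out the final reductions, had 14.6, 10.3 and 13.2 scaled FPKM in KO and 18.5, 10.2 and 12.1 scaled FPKM in WT. Again WT libraries marked both ends of the range. The log2 fold changes of Pts and Spr were -0.06 and -0.07 after scaling, with standard errors of 0.13 and 0.22, and 0.41 and 0.46 as deposited; scaled to TPM they were 0.03 and 0.03.

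Qdpr, for the dihydropteridine reductase that recycles the cofactor, was the most abundant of the 8 genes, with 48.3, 42.7 and 51.5 scaled FPKM in KO and 74.7, 63.8 and 51.9 scaled FPKM in WT. After scaling the groups did not overlap, but the highest KO library and the lowest WT library were next to each other. The means were 47.5 ± 4.48 and 63.5 ± 11.4 scaled FPKM (SD, n = 3), a log2 fold change of -0.40 (standard error 0.16) that was not called. As deposited the groups overlapped and the log2 fold change was 0.17.

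**Figure D2:**
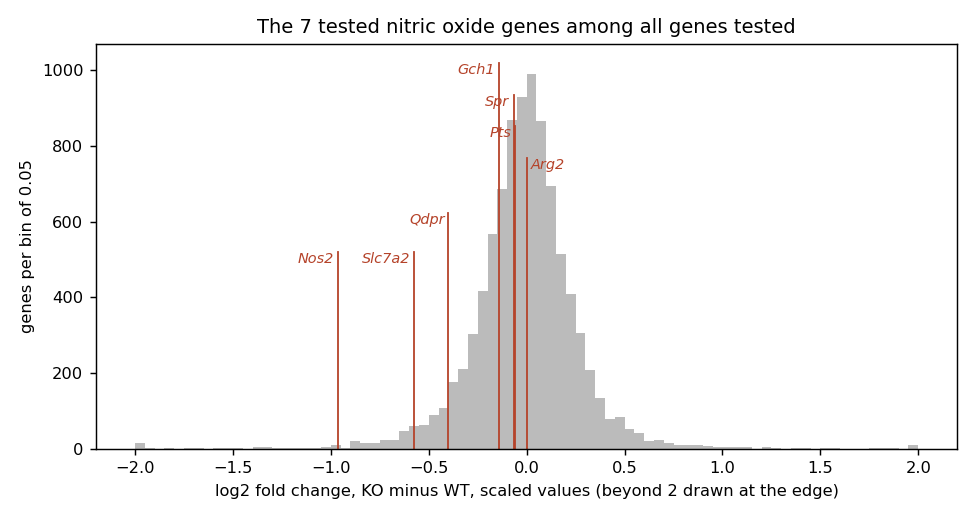
Number of genes (vertical axis) by log2 fold change, KO minus WT, of scaled values (horizontal axis, bins of 0.05) over the 9218 genes tested, with lines at the 7 tested nitric oxide genes. Nos2 at -0.97 and Slc7a2 at -0.58 lie in the left tail, and Arg2, Pts, Spr and Gch1 lie between -0.14 and 0.00 near the centre; as deposited, Arg2, Pts, Spr, Gch1 and Qdpr had positive values.

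Of the 8 genes, 7 passed the filter on low values, and of these 1, Nos2, was called at an adjusted p under 0.05, where 1.07% of all 9218 genes tested were called in either direction and 0.597% lower in KO. In 3 of the 7 (Nos2, Slc7a2 and Qdpr) all KO libraries lay below all WT libraries, as in 9.88% of all genes tested. The contrast chose the set, so nothing is read from these shares. The 7 had a median log2 fold change of -0.14 beside -0.00498 over all genes tested, with 6 below 0 after scaling, 4 below 0 when scaled to a fixed sum (TPM) and 2 below 0 as deposited.

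Levels per length can be compared between the genes only roughly. The length used was that of all annotated exons of a gene together, and not of the transcript in use. In WT the order from the highest was Qdpr, Slc7a2, Gch1, Spr, Nos2, Pts, Arg2 and Nos3. In KO it was Qdpr, Gch1, Slc7a2, Spr, Pts, Nos2, Arg2 and Nos3. The neighbours Slc7a2 and Gch1 changed places: Slc7a2 was above Gch1 in 2 of the 3 WT libraries and below it in all 3 KO libraries. In WT replicate 1 both stood at 21.9 scaled FPKM, so their order in WT rested on WT replicate 2. Nos2 and Pts changed places too: Nos2 stood above Pts in all 3 WT libraries and below it in all 3 KO libraries, where the means of 4.19 and 4.34 scaled FPKM were closer than the spread between libraries. Slc7a2 and Spr in KO were not ordered alike in every library, with Slc7a2 above in 2 of 3. By its mean, Nos2 was above 67.2% of the genes tested in WT and above 44.7% of them in KO.

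Ratios between genes of the same library do not depend on how libraries are scaled. The ratio of Nos2 to Pts was 0.961, 0.958 and 0.975 in KO and 2.23, 1.60 and 2.25 in WT. The ratio of Nos2 to Gch1 was 0.207, 0.249 and 0.218 in KO and 0.392, 0.471 and 0.461 in WT. Both ratios were lower in every KO library than in any WT library, with means of 0.224 ± 0.0217 and 0.442 ± 0.0431 for Gch1 (SD, n = 3). The ratio of Nos2 to Slc7a2 was 0.283, 0.302 and 0.269 in KO and 0.392, 0.320 and 0.538 in WT, so Nos2 was also lower relative to the transporter in every KO library. The ratios of Nos2 to Spr and to Qdpr were likewise lower in all KO libraries, though KO replicate 2 at 0.438 came close to WT replicate 1 at 0.463 for Spr.

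The ratio of Slc7a2 to Gch1 was 0.730, 0.823 and 0.812 in KO and 1.00, 1.47 and 0.857 in WT, again with no overlap but with WT replicate 3 close to the KO libraries. The ratios of Qdpr, Pts and Spr to Gch1 overlapped between the genotypes. Such ratios show unequal differences between genes and not which of them differed. Nos2 had been chosen by its difference between the genotypes, so the ratios with Nos2 on top largely restate that choice. They carry no test, and the share of other gene pairs without overlap was not computed.

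**Figure D3:**
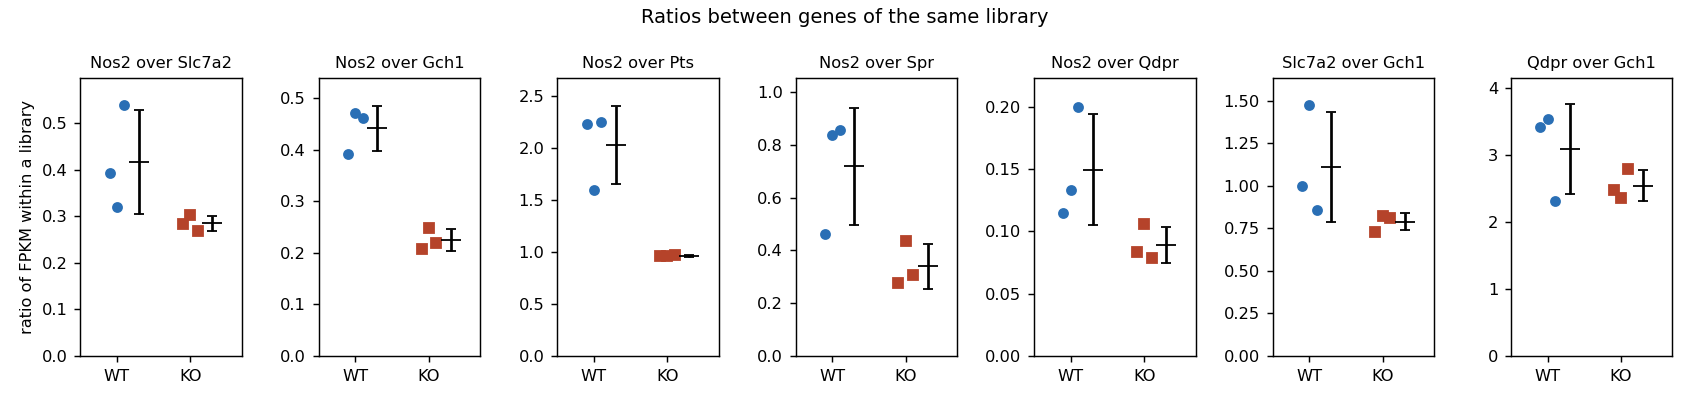
Ratios of FPKM between genes of the same library (vertical axes, each from 0) in the 3 WT (circles) and 3 KO (squares) libraries, with the mean and SD beside the points. All 5 ratios with Nos2 on top and the ratio of Slc7a2 to Gch1 are lower in every KO library than in any WT library, while the ratio of Qdpr to Gch1 overlaps. Nos2 was chosen by its difference between the genotypes, which its ratios largely restate.

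The rest of the pathway was read from 4 lists of 67 genes, of which 62 were in the table and 49 passed the filter on low values. None of the 49 was called in either direction after scaling (limma, adjusted over all genes tested, where 1.07% were called), and none by limma-voom on recovered reads. At an unadjusted p under 0.05 there were 7, with 3 higher and 4 lower in KO, beside 14.1% of all genes tested that passed at that level. As deposited 11 of the 49 were called, beside 29.3% of all genes tested.

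Genes of arginine supply and use had a median log2 fold change of -0.19 over 14 tested members, with 11 below 0 after scaling. The most abundant were Ass1, for the enzyme that returns citrulline towards arginine (415 ± 44.5 scaled FPKM in KO and 478 ± 53.5 in WT), Arg1 (338 ± 52.5 and 395 ± 111) and Cps1, for the first enzyme of the urea cycle (161 ± 13.7 and 218 ± 57.2; SD, n = 3). Their log2 fold changes were -0.20, -0.19 and -0.40 after scaling and positive as deposited. Oat, for ornithine aminotransferase, had 89.4 ± 18.9 scaled FPKM in KO and 131 ± 17.6 in WT (log2 fold change -0.56, limma adjusted p = 0.220). Its groups did not overlap after scaling, as in 9.88% of all genes tested with KO below WT, but overlapped as deposited, where the log2 fold change was 0.01. Slc3a2, for the heavy chain of several amino acid exchangers, had 15.9 ± 2.12 and 12.1 ± 1.68 scaled FPKM (0.37, adjusted p = 0.299, and 0.00305 as deposited). Slc7a1, the other widespread cationic transporter, lay between 0.451 and 0.748 scaled FPKM in all libraries and was not tested.

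Of 10 other genes that make, control or use tetrahydrobiopterin, 7 were tested and 6 had a value below 0 after scaling, with a median of -0.18. Pcbd1, for the dehydratase that acts before Qdpr in the recycling of the cofactor, had a value of -0.18 and Gchfr, for the feedback regulator of GTP cyclohydrolase, also -0.18, both with overlapping groups and both positive as deposited. Cbr1, a carbonyl reductase that can stand in for sepiapterin reductase, had -0.38 after scaling (limma adjusted p = 0.343) and 0.13 as deposited. All its KO libraries lay above all WT libraries as deposited, where the median gene was 0.45 higher in KO. The share of genes in that order was not computed.

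Of the partners of the synthases and the genes of the nitric oxide response, 9 of 18 were tested. Hsp90aa1 and Hsp90ab1, the cytosolic chaperones that bind the synthases, had the largest positive values. Hsp90aa1 had 79.2 ± 13.8 scaled FPKM in KO and 49.2 ± 12.0 in WT (SD, n = 3; log2 fold change 0.69, limma adjusted p = 0.168), and Hsp90ab1 176 ± 29.0 and 110 ± 32.9 (0.70, adjusted p = 0.223). All KO libraries lay above all WT libraries for both, as in 10.3% of all genes tested, and both passed as deposited. Calm2, the most abundant calmodulin gene, stood at 48.9 ± 5.67 and 55.8 ± 10.3 scaled FPKM (-0.18). The subunits of soluble guanylate cyclase, the receptor of nitric oxide, were low, and Gucy1a1 and Gucy1b1 did not exceed 0.526 scaled FPKM in any library.

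The inducers of Nos2 transcription gave 19 tested genes with a median of -0.09, 7 above and 12 below 0 after scaling. Cd14, the LPS co-receptor, had 167 ± 38.6 scaled FPKM in KO and 125 ± 19.2 in WT (SD, n = 3; log2 fold change 0.41, limma adjusted p = 0.405) and Myd88, the adaptor of toll-like receptors, 45.2 ± 5.09 and 42.6 ± 3.17 (0.08, adjusted p = 0.848). Cebpb, a transcription factor of the acute-phase response, had 152 ± 12.1 and 184 ± 17.1 scaled FPKM (-0.28, adjusted p = 0.405) and Jak2, a kinase of the interferon gamma receptor, 9.51 ± 0.904 and 11.6 ± 0.875 (-0.27, adjusted p = 0.354). Neither of the last pair overlapped between the genotypes after scaling, as in 9.88% of all genes tested with KO below WT. Both had positive values as deposited. Irf1, which acts on Nos2 after interferon gamma, had -0.22, and Rela, the NF-kB subunit p65, -0.25. None of these genes passed after scaling, while as deposited Cd14 (log2 fold change 0.98, limma adjusted p = 0.00109) and Myd88 (0.64, adjusted p = 0.0315) did. Il1b, for interleukin-1 beta, had 24.3 to 31.1 scaled FPKM in KO and 19.9 to 24.2 in WT (log2 fold change 0.25, limma adjusted p = 0.460). Every KO library thus lay above every WT library after scaling, as in 10.3% of all genes tested. The same order as deposited adds little, since the median gene was 0.45 higher in KO there on the log2 scale. The share of genes in that order as deposited was not computed.

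**Figure D4:**
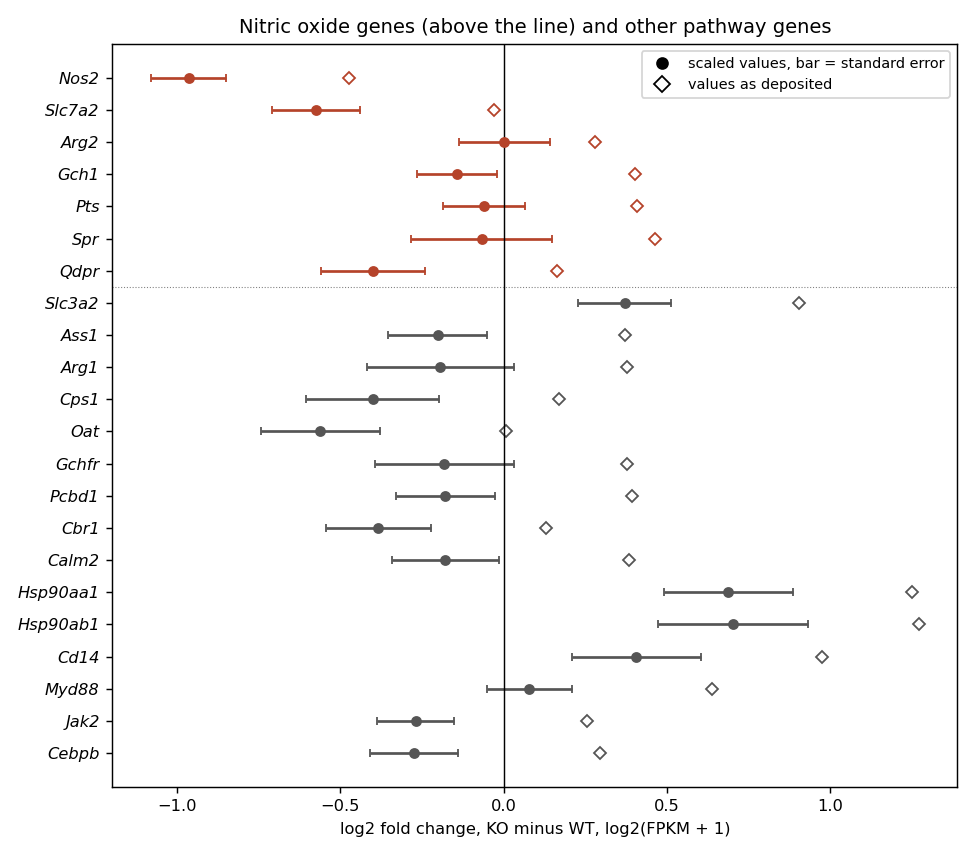
Log2 fold change, KO minus WT, on the log2(FPKM + 1) scale (horizontal axis) for the 7 tested nitric oxide genes and 15 other pathway genes; filled points are scaled values with their standard error and open diamonds the values as deposited. Nos2 and Slc7a2 are the only 2 of the 7 that stay below 0 on both scales, and Hsp90aa1 and Hsp90ab1 lie farthest to the right on both.

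Cell type markers were read beside Nos2, since in whole liver fewer cells of a type and less RNA per cell cannot be told apart. Of 7 Kupffer cell markers 5 were tested and none was called (limma). Timd4 (0.843 to 0.893 scaled FPKM in KO and 1.61 to 2.18 in WT), Cd5l (2.72 to 4.25 and 4.61 to 6.99) and Vsig4 had log2 fold changes of -0.59, -0.55 and -0.55, with limma adjusted p of 0.0578, 0.208 and 0.199. Clec4f and Marco had values of 0.03 and 0.16. The summed level of the 7 markers was 20.7 to 37.2 scaled FPKM in KO and 22.4 to 39.3 in WT, so the sums overlapped. The summed level of 8 neutrophil markers was 117 to 129 scaled FPKM in KO and 111 to 171 in WT, that of 5 monocyte markers 2.90 to 4.38 and 3.28 to 4.43, that of 8 sinusoidal endothelial markers 19.5 to 24.8 and 20.6 to 30.3, and that of 6 vascular endothelial markers 7.89 to 11.2 and 7.24 to 11.4. Single markers of these and other cell types also differed with no overlap after scaling. Over all genes tested, 9.88% had every KO library below every WT library after scaling and 10.3% had every KO library above. Stab2, a scavenger receptor of sinusoidal endothelium, had 1.67 to 2.87 scaled FPKM in KO and 3.79 to 4.41 in WT (log2 fold change -0.67, limma adjusted p = 0.0888), and Ehd3, of the same list and not tested, 0.623 to 0.876 and 0.908 to 1.22. Both overlapped as deposited. Lrat, for the enzyme with which stellate cells store retinol as esters, had 0.253 to 0.347 scaled FPKM in KO and 0.980 to 1.99 in WT, with every KO library below every WT library as deposited too. It did not pass the filter on low values and was not tested. Timd4 was likewise lower in every KO library on both scales. Epcam, a cholangiocyte marker, was higher in every KO library after scaling, at 1.20 to 1.48 against 0.760 to 0.886 scaled FPKM. Its log2 fold change was 0.34 (limma adjusted p = 0.193). The same order of Epcam as deposited adds little, since the median gene was 0.45 higher in KO there on the log2 scale. Epcam entered the test only because its deposited value reached 1 FPKM in all 3 KO libraries, and in no WT library, before scaling. The summed level of 8 stellate cell markers was 60.4 to 66.7 scaled FPKM in KO and 56.2 to 81.5 in WT, and that of 5 cholangiocyte markers 39.7 to 74.9 and 41.5 to 62.2. Such sums follow the most abundant genes of a list. In the stellate list these were Ecm1 (means of 34.2 scaled FPKM in KO and 36.5 in WT) and Dcn (20.3 and 23.3). In the Kupffer cell list they were Marco (13.3 and 11.3) and Clec4f (8.29 and 8.19). The overlap of the Kupffer cell sums thus says little of Timd4, Cd5l and Vsig4. No tested marker of any cell type was called after scaling, and the part of these markers in the Nos2 difference was not tested. The 8 hepatocyte markers summed to 21362 to 25535 scaled FPKM in KO and 23273 to 30400 in WT. The 13 mitochondrially encoded genes took 10.6% to 18.0% of reads in KO and 9.82% to 18.7% in WT.

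The genes whose levels ran most nearly parallel to Nos2 across the 6 libraries were sought among 4587 other genes with a mean of at least 5 FPKM, by the root mean square difference of log2 values centred on each gene's mean. Closest was Pdcd4, which codes for an inhibitor of translation initiation, with a difference of 0.069 against a median of 0.516 over all genes compared. Pdcd4 had 16.7, 17.8 and 17.8 scaled FPKM in KO and 35.6, 32.1 and 36.9 in WT. Slc37a4, for the glucose 6-phosphate transporter of the endoplasmic reticulum (0.126), Tsku (0.139), Ide, for the insulin-degrading enzyme (0.141), and Wbp1l (0.158) followed. No gene but Pdcd4 came within 0.1 of Nos2. The likeness rests largely on the step between the genotypes, by which Nos2 had been chosen, and carries no test.

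For Gch1, whose level differed little between the libraries, 133 genes came within 0.1. The closest were Ykt6 (0.035), Hfe (0.052), Fbxo9 (0.053), Ubxn1 (0.060) and Cyp2d22 (0.061). Ykt6, a SNARE of membrane fusion, had 15.2, 14.8 and 14.5 scaled FPKM in KO and 17.9, 13.7 and 17.5 in WT, with the same low value in WT replicate 2 as Gch1.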

How the data were processed

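Liver RNA of 3 KO and 3 WT libraries was analysed from a single table of FPKM values made by the authors. Per the submitters' processing notes, the aligner HISAT2 2.0.5 is named, with mm39 and hg38 listed as builds without a role. The sources used here name no counting tool, strand setting, annotation or filter. No scaling between libraries is recorded, so the deposited FPKM were divided by median-of-ratios factors, computed over the tested genes above 0 in every library. The 9218 genes that reached 1 FPKM as deposited in 3 or more of the 6 libraries were tested by limma 3.58.1 in R 4.3.3 (two-sided, eBayes with its trend option) on log2(scaled FPKM + 1), with genotype as the only term, Benjamini-Hochberg adjustment over all of them, and calls at an adjusted p under 0.05. Whole reads were recovered from the FPKM steps for all 19613 rows, to within 0.0001 reads; gene lengths of GENCODE M21 set their absolute scale, and 7 of the 8 genes matched exactly, Nos2 at a ratio of 0.994. The steps were tested on simulated data. The members and lists were chosen with earlier results of these data known. Named pathway genes were, per list, the 3 of highest level, the 2 of lowest p and any called; the 5 genes most like Nos2 and Gch1 left out predicted genes and pseudogenes. Irf1, Rela, Il1b, Slc7a1, the guanylate cyclase subunits and the single marker genes were named outside that rule, after their values were seen. The targeted gene and some list genes are not reported here; counts and medians of the lists cover all their tested genes. Alternatives covered the scaling, the pseudocount, the filter, the trend, limma-voom on recovered reads, a replicate block and each library left out.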

Additional observations from a re-analysis of the deposited data

How the results depend on the processing

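The log2 fold change of Nos2 was below 0 under all 16 alternatives. It was -0.47 as deposited, -1.11 with a pseudocount of 0.1 and -1.12 with limma-voom on recovered reads, and from -1.01 to -0.88 with single libraries left out. The 99 genes called (44 higher and 55 lower in KO) became 2703 as deposited (2648 and 55), 111 when scaled to TPM (62 and 49), 33 with no filter on low values and 61 among genes averaging 5 FPKM or more, and 20 to 98 with single libraries left out. The replicate number as a block gave 298 called genes. Same-numbered libraries had correlations of 0.33, 0.47 and 0.02 between their deviations from the group means. The 0.47 of replicate 2 was the highest of all pairs, while WT replicate 1 correlated more with KO replicate 3 (0.36). These values do not settle whether the numbers pair the libraries. No block was used in the main fit because the labels do not say that they do. Of the other pathway genes, 0 were called with any library left out, 11 as deposited and 2, Hsp90aa1 and Hsp90ab1, with the replicate block. The sign of Gch1, Pts, Spr and Qdpr turned as deposited, that of Pts and Spr also when scaled to TPM and with some libraries left out, and that of Arg2 varied about 0. At 22 to 79 reads per library, differences in Arg2 and Nos3 within counting error could not be detected.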
